A study of Mus musculus with 12 samples.

Results

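Spinal cord microglia of mice in the acute phase of chronic-relapsing experimental autoimmune encephalomyelitis (crEAE) were compared with those of control mice. All animals were of the Biozzi ABH strain. The comparison rests on 6 of the 12 libraries of the study, 3 labelled acute and 3 labelled control, and each library came from 1 mouse. The other 6 libraries, 3 from mice in remission and 3 from mice in the chronic phase, serve as reference levels and share in the estimate of the spread. The cells had been sorted as CD11b-positive, CD45-intermediate and Ly-6C-negative. What the control mice received, and the age and sex of the animals, are not given in the sources used here. EAE is an autoimmune attack on the central nervous system set off by immunisation and serves as a model of multiple sclerosis.

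Microglia are the resident macrophages of the brain and spinal cord. At rest they sense nucleotides and chemokines through receptors such as P2ry12 and Cx3cr1, and their identity depends on signals of the TGF-beta family. In the acute phase of EAE, monocytes, neutrophils and T cells also enter the spinal cord, and monocyte-derived macrophages can come to carry surface proteins that resemble those of microglia. In bulk RNA, fewer cells of a type and less RNA of a gene in each cell cannot be told apart. Transcripts of the entering cells are therefore given beside the results as measured levels.

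Of 12545 genes tested, 2977 (23.7%) were higher and 2510 (20%) were lower, 43.7% in all, in acute than in control libraries at an adjusted p under 0.05 (edgeR's quasi-likelihood test with Benjamini-Hochberg adjustment). Large changes were mostly rises: 298 genes rose and 30 fell by more than 32-fold, and 103 of the genes that rose had 0 counts in all 3 control libraries. Such genes entered the test through other groups and could only rise. The balance was the opposite among abundant genes. Of 656 genes with a control mean of at least 100 CPM (counts scaled to library size, as described with the methods), 378 (57.6%) fell and 100 (15.2%) rose. Among noncoding features, 83 of 308 antisense RNAs and 53 of 180 lincRNAs fell, and 14 and 22 rose. The libraries do not keep the strand, so antisense RNAs cannot be separated from the genes they overlap. All counts depend on scaling: with library totals alone, 1603 genes were higher and 5427 lower, the median over all genes moved from 0.02 to -0.53 on the log2 scale, and 22.8% of calls were rises, against 54.3% here.

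**Figure D1:**
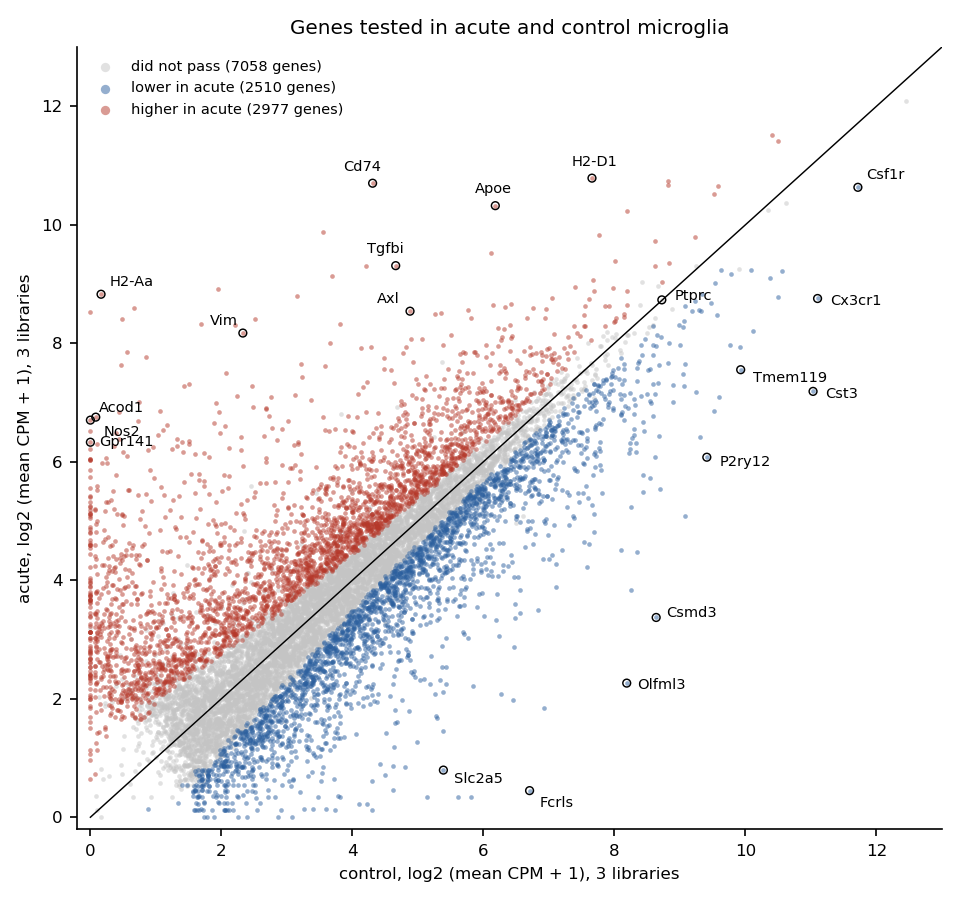
Mean level of each of the 12545 genes tested in control libraries (horizontal axis) against acute libraries (vertical axis), both as log2(mean CPM + 1) over 3 libraries, with a line of equal levels. Red points (2977 genes) were higher and blue points (2510) lower in acute libraries, and grey points (7058) did not pass; the genes farthest above the line lie at low control levels.

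Library composition differed between the groups. Total counts were 4173825 to 4669475 in acute and 4129440 to 5027896 in control libraries. The 6 most abundant features, among them ribosomal RNA fragments, held 62.4 to 64.1% of acute and 48.3 to 56.2% of control counts. Mitochondrially encoded genes held 5.17 to 5.74% and 1.92 to 2.29%. The part of these shares in the results was not tested.

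The sort markers and the markers of other cells gave a mixed picture of the gate. Ptprc, which encodes CD45, stood at 463, 401 and 400 CPM in control and at 434, 441 and 398 in acute libraries, and the groups overlapped (log2 difference 0.01, adjusted p 0.97; -0.56, 0.0045 with library totals). Ly6c2, which encodes a Ly-6C protein, had 0 counts in control and stood at 76.5, 74.6 and 42.7 CPM in the acute libraries although the gate was Ly-6C-negative. The summed level of 20 markers of monocytes and recruited macrophages was 2514 to 3629 CPM in acute against 35.6 to 94.5 CPM in control libraries, and 6 of the 20, among them Ly6c2, Chil3 and F10, had 0 counts in control. The 20 T and NK cell markers summed to 135 to 195 against 0.427 to 2.98 CPM. In both lists most members were so low in control that they could pass the filter on low counts only through the acute libraries, so no count of members called is given.

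Neutrophil markers need care, because Csf3r, the receptor for G-CSF, was itself abundant in control microglia at 348 to 456 CPM. The 15 other neutrophil markers, a set chosen after their values were seen, summed to 0.701 to 0.996 CPM in control and to 275, 520 and 153 CPM in the acute libraries, with 11 of 15 at 0 counts in control. Replicate 2 was the highest. The summed B and plasma cell markers were lower, at 25.8 to 39.7 CPM in acute against 55.9 to 82.5 CPM in control libraries. Most of that sum was Ighm, with means of 64.3 CPM in control and 18.8 CPM in acute libraries. The 3 tested members, Ighm among them, were lower, against 20% of all genes. Igkc, Jchain and Fcrla were not tested and rose from 0 counts in control to 68, 17 and 18 counts in acute libraries. Igkc stood at 16.9 CPM in acute replicate 1. The defining B cell marker Ms4a1 had 0 counts in both groups. Oligodendrocyte markers summed to 465 to 625 against 89.9 to 113 CPM, and 7 of 10 tested members were higher, or 2 without control replicate 1, against 23.7% of all genes tested. The resting microglia list fell from 14872 to 17214 CPM in control to 3245, 3760 and 4879 CPM in the acute libraries. Among acute libraries, replicate 3 had the most RNA of resting microglia genes and the least of monocyte and T cell markers. Replicate 3 is also the only acute library with the number 1 in its sample title, and the others hold 2. Orders of the 3 acute libraries were not tested. Border macrophage markers summed to 74.7 to 121 against 0.853 to 1.08 CPM, mostly through F13a1, which the monocyte list also holds. Dendritic cell markers summed to 123.7 to 150 against 209 to 244 CPM, with 4 of 7 tested members higher and 3 lower. Most of the control sum was Fscn1, with means of 184 CPM in control and 23.9 CPM in acute libraries. Itgax of the same list rose from a mean of 8.20 to 51.4 CPM, so the lower sum does not describe the whole list. Astrocyte markers summed to 201 to 250 against 63.3 to 80.1 CPM (4 of 7 higher, or 2 without acute replicate 1 or control replicate 1 or 2). Erythroid markers summed to 19.3 to 73.0 against 1.08 to 3.13 CPM, endothelial markers to 22.8 to 29.6 against 14.2 to 15.9 CPM and neuronal markers to 8.53 to 11.7 against 8.76 to 13.8 CPM. The part of these other transcripts in the results below was not tested.

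Genes of resting microglia fell together, but to very different depths. All 22 tested members of the 24-gene list were lower, against 20% of all genes. Their acute level was between 0.354% and 47.1% of control, with a median of 19.4%. The smallest remainders belonged to Fcrls, an Fc receptor-like gene, at 0.354%, to Olfml3, a secreted matrix protein, at 1.31%, and to Slc2a5, a fructose transporter, at 1.80%. The largest belonged to Csf1r, the receptor for the growth factors CSF1 and IL-34 on which microglia depend for survival, at 47.1%, and to Bin1 at 34.3%. Between them lay P2ry12 at 9.79%, Tmem119 at 19.2%, Cx3cr1 at 19.6%, Trem2 at 26.0% and the transcription factor Sall1 at 27.2%. The direction of this list has been reported from these same libraries and is no independent evidence; the spread among members is what the remainders show.

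**Figure D2:**
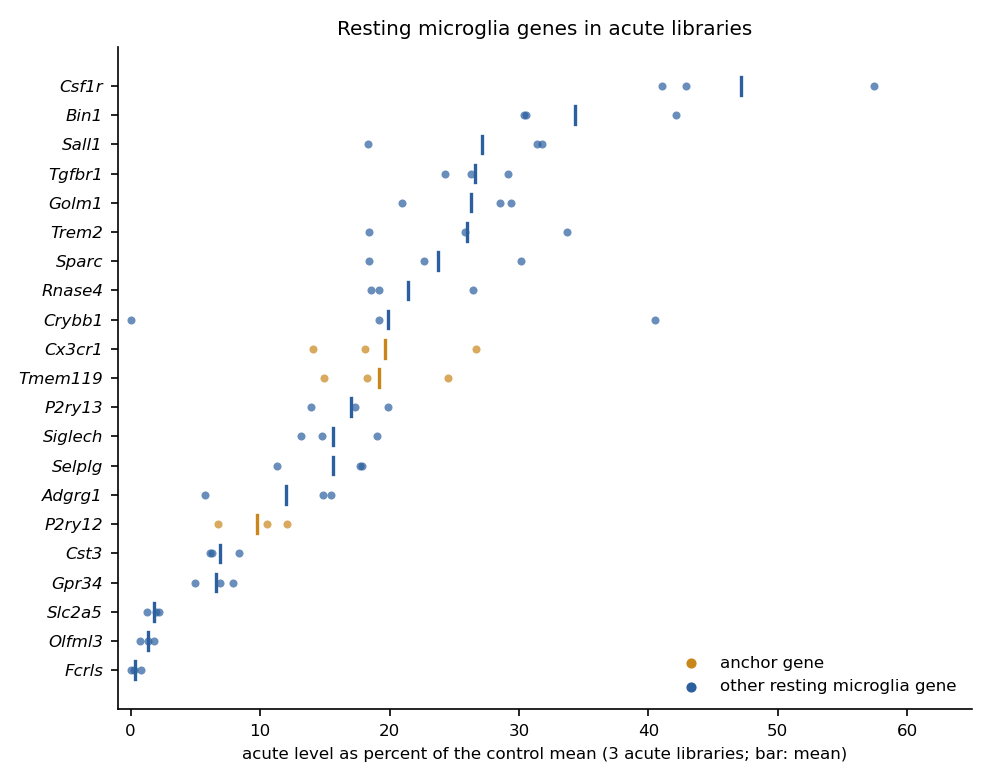
Acute level of tested resting microglia genes as a percent of each control mean (horizontal axis), with a point for each of the 3 acute libraries and a bar at their mean; 3 anchor genes are in orange. Fcrls, Olfml3 and Slc2a5 kept under 2% and Csf1r kept 47.1%, while Crybb1 was spread from 0 to 5.63 CPM over the acute libraries.

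To measure which genes fell further than resting microglia RNA as a whole, library sizes were replaced by the summed counts of 4 anchor genes of resting microglia, among them Tmem119, P2ry12 and Cx3cr1. A common factor that lowers all microglia RNA, such as a smaller microglial share of the sorted RNA, is removed by this scaling. On it, 107 genes (0.853% of those tested) were lower and 11426 (91.1%) higher. Of the 2510 genes that fell on the usual scale, 107 fell relative to the anchors, 1673 were higher relative to them and 730 did not pass. When P2ry12 alone, which fell most of the 4, was the anchor, 33 genes (0.263%) were lower. Of the 22 resting microglia genes, 8 were lower relative to the 4 anchors, of which only Fcrls, Olfml3 and Slc2a5 were also lower relative to P2ry12.

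Fcrls showed the deepest of these falls among genes with at least 100 CPM in control. It stood at 93.5, 103 and 114 CPM in control and at 0, 0.799 and 0.296 CPM in acute libraries. The groups lay far apart, and the acute level rested on 4 counts in all, with a pooled ratio of 280 (95% counting interval 109 to 1028). Relative to the anchors its log2 difference was -5.86 ± 0.46 (SE, adjusted p 3.13e-12). In remission the mean was 106 CPM and in the chronic phase 139 CPM, and each of these 6 libraries was at 92.6 CPM or more.

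Olfml3 stood at 282, 285 and 304 CPM in control and at 2.08, 4.0 and 5.34 CPM in acute libraries, a log2 difference of -4.04 relative to the anchors. Mrc2, a collagen-binding endocytic receptor, stood at 116, 102 and 143 CPM against 3.11, 2.93 and 1.78 CPM (-3.22 relative to the anchors). Csmd3, which encodes a large transmembrane protein with complement-control repeats, stood at 312, 520 and 359 CPM against 4.41, 8.53 and 15.1 CPM (-3.22). Each of these 3 genes kept under 3% of its control level and was also lower relative to P2ry12 alone.

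Col27a1, a fibrillar collagen chain, followed at 256, 340 and 318 CPM in control against 12.2, 13.1 and 14.8 CPM in acute libraries (-2.23 relative to the anchors). Abca9, a lipid transporter of the ABC family, stood at 545, 521 and 546 CPM against 15.3, 38.1 and 45.1 CPM (-1.84). Both were lower relative to P2ry12 alone as well, with adjusted p of 0.00017 and 0.0073. For other genes of this set the anchor mattered. Gpr34, a lysophospholipid receptor (-1.64), Cst3, the protease inhibitor cystatin C (-1.57), and Ccr6, a chemokine receptor (-1.18), were lower relative to the 4 anchors but not relative to P2ry12 alone, with adjusted p from 0.072 to 0.77.

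Below 100 CPM in control, several genes fell to a few counts. St8sia6, a sialyltransferase, stood at 46.8, 51.7 and 66.0 CPM in control and 0.519, 0 and 0.296 CPM in acute libraries. Gpr165, an orphan receptor, stood at 49.4, 51.0 and 42.7 CPM against 0.259, 0.533 and 0 CPM. Relative to the anchors they were lower by -5.34 and -5.15 on the log2 scale. Itga9, an integrin subunit, kept 3.38% of its control level, Cfap74, a ciliary protein gene, 4.25%, and the protease Adamts1 4.31%, and these 3 were lower relative to P2ry12 alone too. Gpr165 and Itga9 stayed low later: Gpr165 had a mean of 2.31 CPM in remission and 1.21 CPM in the chronic phase, and Itga9 of 17.3 and 14.6 CPM. Cfap74 stood at 75.8 CPM in remission, close to its control mean of 75.9 CPM.

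The heat shock gene Hspa1b also met the rule for large falls, but its control libraries disagreed. They stood at 7.25, 20.7 and 74.7 CPM, against 0.259, 0.266 and 0.296 CPM in acute libraries. Its fall (adjusted p 0.026) was not called without control replicate 3, without any 1 acute library or by limma-voom (adjusted p 0.0631 to 0.367), and reads of Hspa1b and Hspa1a are hard to separate.

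**Figure D3:**
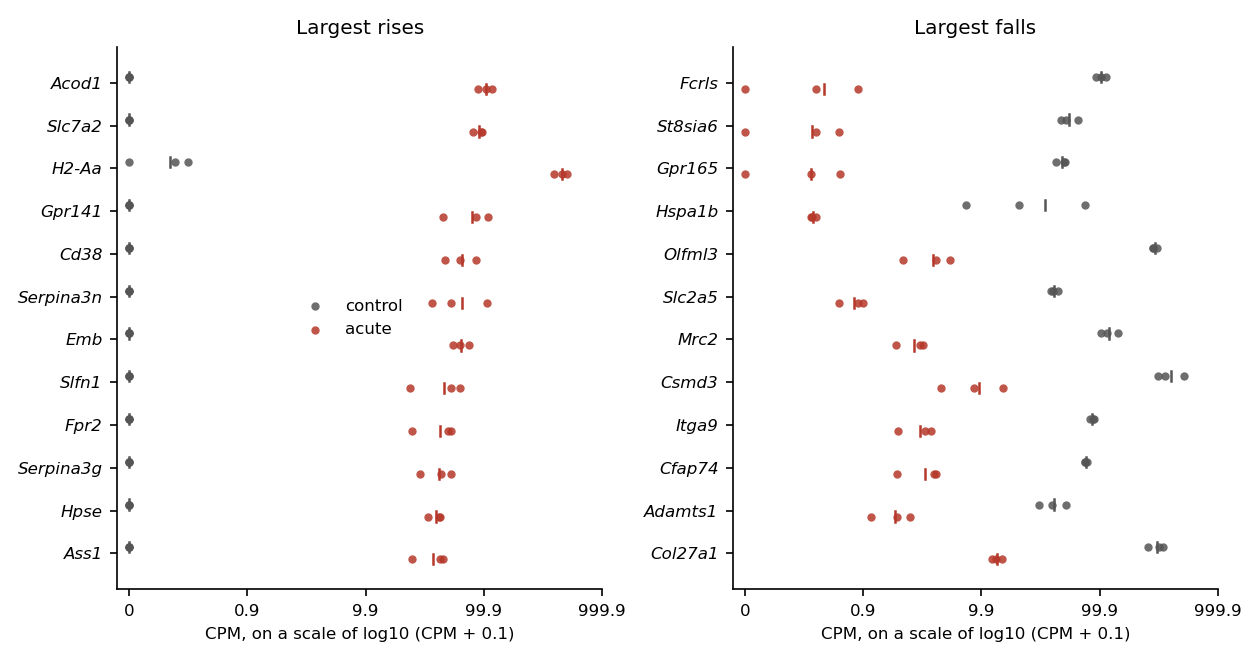
Levels in the 3 control (grey) and 3 acute (red) libraries of the 12 genes with the largest rises and the 12 with the largest falls outside the marker lists of other cells, on a scale of log10(CPM + 0.1), with a bar at each mean. Of the rising genes, 11 had 0 counts in control and the other, H2-Aa, had 2.

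The largest rises outside the marker lists were in genes without control counts. Acod1, the mitochondrial enzyme that makes itaconate, reached 104, 116 and 89.5 CPM in the acute libraries, at least 600-fold above the floor of 3 counts over the control group. Slc7a2, a transporter of arginine and other cationic amino acids, reached 93.9, 95.6 and 81.2 CPM (at least 525-fold). Both were lowest in replicate 3, as were the sums of monocyte markers, of T and NK cell markers and of neutrophil markers without Csf3r. Both were highest in replicate 2, as were the T and NK cell and neutrophil sums but not the monocyte sum. For Slc7a2 the values of 93.9 and 95.6 CPM were close. None of these orders was tested.

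Gpr141, an orphan receptor, reached 108, 85 and 45.4 CPM (at least 468-fold). Cd38, an NAD-consuming ectoenzyme, reached 85.6, 63.1 and 47.1 CPM (at least 383-fold), and Emb, a chaperone of monocarboxylate transporters, 75.0, 62.6 and 54.2 CPM (at least 373-fold). The protease inhibitor gene Serpina3n was uneven at 107, 36.0 and 52.8 CPM (at least 382-fold). Slfn1, the formyl peptide receptor Fpr2, Serpina3g, the heparan sulfate-cleaving enzyme Hpse and the argininosuccinate synthase Ass1 were at least 273-, 247-, 244-, 226- and 219-fold higher. In H2-Aa, an MHC class II chain, 2 control counts stood against 392, 460 and 507 CPM in acute libraries, a pooled ratio of 3915 (95% counting interval 1083 to 32336), with replicate 3 the highest.

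Among genes already expressed in control microglia, at 20 CPM or more, the rises were smaller in ratio and large in level. Tgfbi, an extracellular matrix protein induced by TGF-beta, stood at 24.9, 23.0 and 25.0 CPM in control and at 799, 621 and 480 CPM in acute libraries (log2 difference 4.70 ± 0.42 SE, adjusted p 1.3e-05). Fth1, the heavy chain of the iron store ferritin, stood at 60.0, 58.2 and 87.6 CPM against 874, 647 and 672 CPM (3.42 ± 0.19, adjusted p 1.4e-10). Both were highest in acute replicate 1, which had the most RNA of monocyte markers, but Fth1 was lowest in replicate 2. Neither order was tested.

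Apoe, which carries cholesterol, stood at 53.3, 53.4 and 108 CPM in control and at 960, 1154 and 1722 CPM in acute libraries. Axl, a receptor that binds dying cells through Gas6, stood at 23.6, 20.7 and 41.0 CPM against 339, 398 and 378 CPM. Apoe was highest in acute replicate 3, which had the most RNA of resting microglia genes, an order that was not tested. Plec, a cytoskeletal linker, the peptide transporter Tap1, the guanylate-binding proteins Gbp9 and Gbp7, the GTPase Irgm1 and the class I genes H2-D1, H2-Q4 and H2-K1 completed this set, at 8.11 to 10.1 times their control means. Reads of neighbouring H2 and Gbp genes may be shared, which makes their single values uncertain.

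Promoter letters were read for these genes because interferon-responsive genes are known for an element, GAAA and GAAA with any 2 bases between them, that IRF and ISGF3 factors bind. The windows are the 250 bases before each RefSeq start in GRCm38.p6. Of the 32 genes named as rising, 27 had a window and 4 held the element on either strand; they are printed 5′ to 3′ along the gene, with the matched letters in capitals.

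Tgfbi (chr13:56609336-56609585, plus strand): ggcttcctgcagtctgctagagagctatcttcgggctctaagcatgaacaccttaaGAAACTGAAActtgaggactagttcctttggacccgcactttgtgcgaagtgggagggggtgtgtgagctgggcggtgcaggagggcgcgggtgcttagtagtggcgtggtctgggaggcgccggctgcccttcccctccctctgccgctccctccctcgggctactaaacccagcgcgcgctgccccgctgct
Kif1a (chr1:93082481-93082730, minus strand): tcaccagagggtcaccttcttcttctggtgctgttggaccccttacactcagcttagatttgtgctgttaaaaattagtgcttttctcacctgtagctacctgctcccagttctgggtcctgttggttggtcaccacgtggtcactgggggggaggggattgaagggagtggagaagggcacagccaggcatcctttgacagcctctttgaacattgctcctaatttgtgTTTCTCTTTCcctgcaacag
Gbp7 (chr3:142530086-142530335, plus strand): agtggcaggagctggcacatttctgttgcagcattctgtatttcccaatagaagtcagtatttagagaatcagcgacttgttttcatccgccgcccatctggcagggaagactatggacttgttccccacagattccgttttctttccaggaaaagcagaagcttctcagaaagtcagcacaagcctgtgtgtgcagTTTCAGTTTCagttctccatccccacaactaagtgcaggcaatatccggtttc
Irgm1 (chr11:48871421-48871670, minus strand): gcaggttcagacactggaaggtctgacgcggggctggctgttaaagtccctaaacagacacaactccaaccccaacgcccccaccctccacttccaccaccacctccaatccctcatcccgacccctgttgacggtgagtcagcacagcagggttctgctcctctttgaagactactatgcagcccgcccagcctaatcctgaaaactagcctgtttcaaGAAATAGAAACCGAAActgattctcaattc

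Irgm1 held 2 overlapping matches, 30 and 24 bases before the start, Gbp7 a match on the reverse strand 53 bases before it, Tgfbi a forward match 194 bases before it and Kif1a a reverse match 20 bases before it. The Kif1a window is 1 of 2 for this gene and belongs to a start inside its annotated span (chr1:93015464-93101951, minus strand), not to its outermost start. The element was present in 3.34% of the 8953 tested genes with a window, in 5.71% of 2243 that rose and in 2.24% of 1743 that fell. A second motif, TTCNNNGAA, the core bound by STAT factors, was present in 7.36%, 7.49% and 7.80% of the same sets. These are counts of letters and say nothing of binding.

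Rises differed in what the remission and chronic libraries held. In those libraries monocyte markers summed to 142 to 168 and 149 to 191 CPM, 4.84% and 5.40% of the acute mean, and T and NK cell markers to 2.43% and 1.19% of it. Remission replicate 1 stood apart, with 66.3 CPM of the neutrophil markers other than Csf3r against 2.39 and 2.49 CPM in the other two. All comparisons with control share the same control libraries, so the levels are set side by side. Against control, 760 genes (6.06%) were higher in remission and 1200 (9.57%) in the chronic phase.

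Of 1157 rising genes eligible for naming, 689 had remission and chronic means that were each at least 50% of the acute mean. Of the 611 eligible genes whose control mean was under 50% of the acute mean, 189 met that rule. Hpse stood at 32.6 CPM in remission and 39.8 CPM in the chronic phase against 39.1 CPM in the acute phase, after 0 counts in control. Gpnmb, a glycoprotein of phagocytes handling lipid, stood at 65.2 and 164 CPM against 65.5 CPM, with 3 counts in control and an acute pooled ratio of 376 (95% counting interval 128 to 1830). Axl, at 398 and 416 CPM, was also at its acute level of 372 CPM. Tested directly, acute and remission libraries did not pass for Hpse (log2 difference, acute minus remission, 0.26, adjusted p 0.40), Gpnmb (-0.01, 0.99) or Axl (-0.10, 0.74).

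P2ry14, a receptor for UDP-glucose, stood at 26.5, 34.4 and 46.5 CPM in the acute libraries and at means of 25.7 and 27.8 CPM later. The MHC class II invariant chain Cd74 had an acute mean of 1664 CPM, with 1448 and 2105 CPM later, and the class I genes H2-Q7 and H2-Q6 kept 67.3% to 95.9%. Complement C4b had 446 CPM in the acute phase, 276 CPM in remission and 758 CPM in the chronic phase. Kif1a, a motor of vesicle transport known from neurons, and Sh3pxd2b, a podosome adaptor, kept 52.5% to 93.3%. Apoe was higher later: it stood at 4641 and 4126 CPM in remission and chronic libraries, and acute libraries were lower than remission (-1.86, adjusted p 0.0021).

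Other genes that rose were low in remission and chronic libraries. Acod1 kept 1.24% of its acute mean in remission and 4.79% in the chronic phase, Gpr141 0.0775% and 0.0756%, and Emb 0.192% and 0.227%. Tgfbi stood at 14.7 and 40.3 CPM there, and Vim, which encodes the filament protein vimentin, at 6.99 and 13.1 CPM against 344, 298 and 219 CPM in the acute libraries. Of the eligible genes, 47 had remission and chronic means both under 10% of the acute mean. These genes were low in the same libraries in which the monocyte sum was low, and bulk counts do not say which cells made the RNA.

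**Figure D4:**
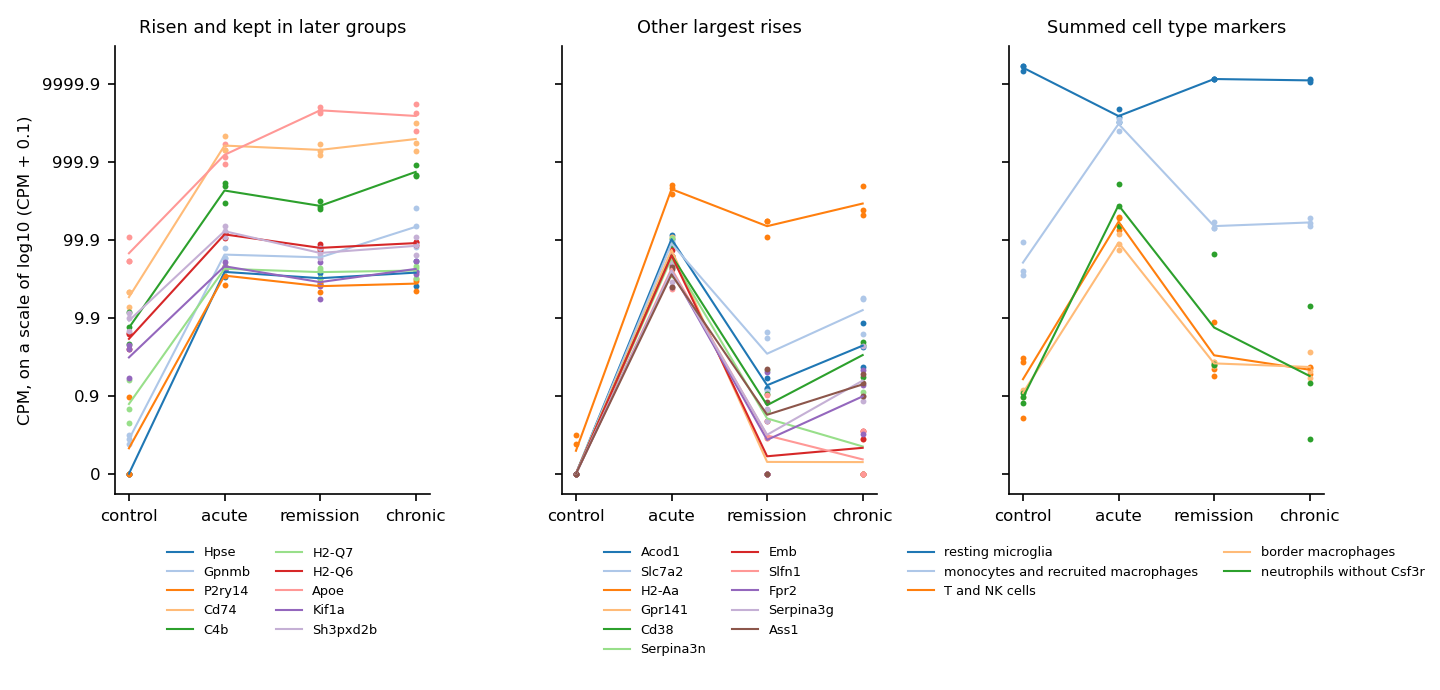
Levels in the 3 libraries of each of the 4 groups (points) on a scale of log10(CPM + 0.1), with lines joining the group means on that scale, for 10 genes kept at 50% or more of their acute mean later (left), the other largest rises (middle) and summed cell type markers (right). In the middle panel H2-Aa stayed at 34.0% of its acute mean in remission and 69.9% in the chronic phase, while Acod1 fell to 1.24% and 4.79%.

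Functions were compared by lists whose counts stand beside the background of 23.7% higher and 20% lower and the median of 0.02 over all genes. That background does not hold for genes low in control. Of 692 tested genes with a control mean under 1 CPM, 583 (84.2%) were higher and 1 was lower. Such genes could hardly fall and passed the filter mostly through other groups, so their rises say little about a list. Where the scaling by library totals changed a count by more than 1.5 times, that count is given too. The plot of list shares shows those with at least 10 tested members. Inflammasome, toll-like receptor, chromatin enzyme, ITAM receptor signalling and heat shock lists were among those with a share of rises near the background. For inflammasome genes the share of falls was near it too. Members named from these lists are examples. Unless stated, falls named below are on the usual scale, and 107 of the 2510 genes that fell on it were also lower relative to the anchors.

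**Figure D5:**
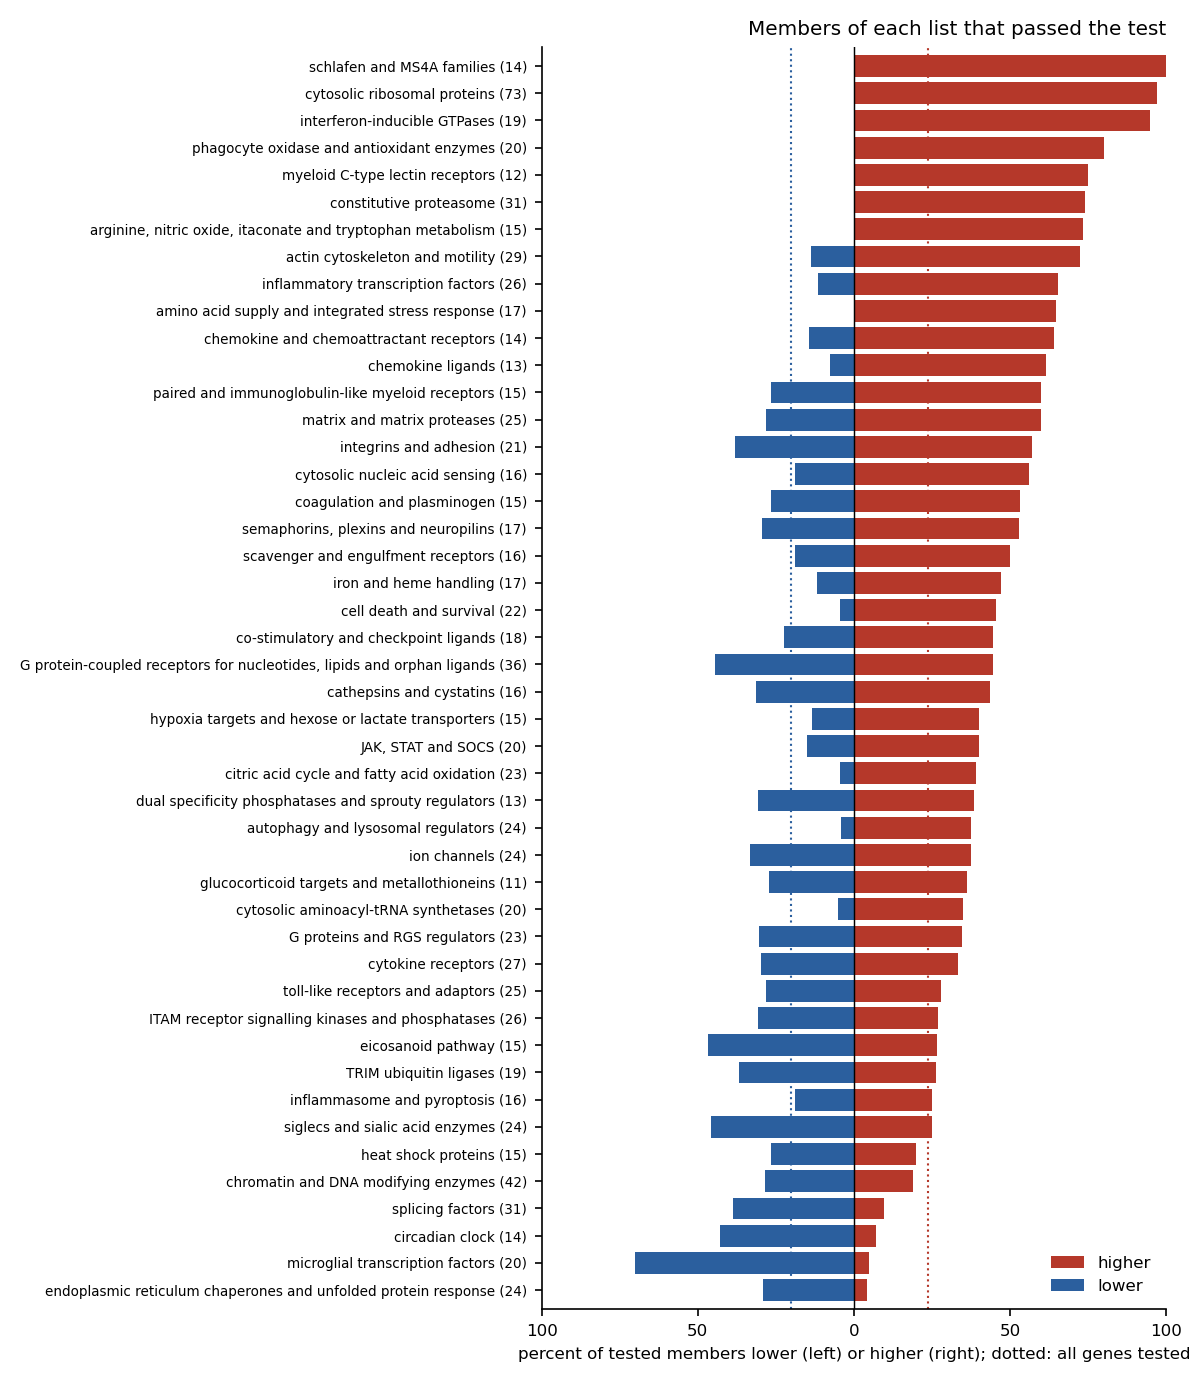
Share of tested members of each function list that was higher (right) and lower (left) in acute libraries, for lists with at least 10 tested members, with dotted lines at the background of 23.7% and 20%. These lines do not hold for members low in control, which could hardly fall. Ribosomal proteins (71 of 73), schlafen and MS4A genes (14 of 14) and interferon-inducible GTPases (18 of 19) lie at the top, and microglial transcription factors (14 of 20 lower) near the bottom; numbers in brackets are members tested.

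Transcription factors of microglial identity mostly fell, and those of inflammation mostly rose. In the microglial list 14 of 20 fell and 1 rose (median -0.66; 18 and 0 with library totals). Maf stood at 145, 179 and 169 CPM in control against 34.5, 32.2 and 32.6 CPM in acute libraries, Mef2c (-1.86) and the TGF-beta effector Smad3 (-1.87) fell as well, and the only riser was Rxra, at 0.66. Relative to the anchors Maf moved by 0.00 and did not pass (adjusted p 0.99). The pioneer factor Spi1 (0.20), its partner Irf8 (-0.33) and Runx1 (-0.03) did not pass, although Irf8 was lower by limma-voom, without a filter on low counts, in a fit of the 2 groups alone and with library totals, and Runx1 with library totals. Among 26 inflammatory factors 17 rose and 3 fell (median 1.38; 15 and 6 with library totals). Bhlhe40, a repressor tied to cytokine production, rose from 0.711, 0.526 and 1.29 to 91.3, 57.5 and 67.3 CPM. Irf1, an interferon regulatory factor, rose by 2.80 on the log2 scale. The NF-kB subunits Rela (0.04) and Nfkb1 (0.16) did not pass, although with library totals they were lower (-0.50, adjusted p 0.0186, and -0.39, adjusted p 0.0454), and Rel and Cebpd fell.

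Interferon-inducible GTPases, which attack membranes around pathogens, rose in 18 of 19 tested cases (median 4.99). Ifi47 stood at 0.427, 0.175 and 0.647 CPM in control against 72.9, 84.7 and 54.5 CPM in acute libraries. All 14 tested schlafen and MS4A genes rose (median 4.15, or 13 with library totals). Both lists hold members at or near 0 counts in control, such as Ifi47 and Slfn1, which could hardly do other than rise. Cytosolic nucleic acid sensors were split, with 9 of 16 higher and 3 lower (8 and 5 with library totals): the DNA sensor Ifi204, the kinase Ikbke and the nucleotide hydrolase Samhd1 rose, while Tmem173, which encodes STING, and Irf3 fell. For toll-like receptors and their adaptors 7 of 25 rose and 7 fell (4 and 13 with library totals, and 11 fell when only the acute and control libraries were fitted). Tlr8, a receptor for RNA, went from 0 counts to 17.1, 12 and 8.60 CPM (at least 73.8-fold), while Tlr9 (-0.71) and Ticam2 (-2.99) fell. Of 16 inflammasome genes 4 rose, including the pyrin gene Mefv and the sensor Nlrc4, and 3 fell, including the sensor Nlrp3 (-0.88), and 9 fell with library totals. Il1b, Mefv and Nlrc4 stood within 1 CPM of their control means in remission and chronic libraries.

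Protein turnover and translation genes changed by class. The immunoproteasome rose in 5 of 6 members (median 1.66), with Psmb8 at 66.7, 78.6 and 56.3 CPM against 12.2, 16.6 and 12.3 CPM. Of 31 constitutive proteasome genes 23 rose and 0 fell (median 0.83), or 8 with library totals. Cytosolic ribosomal protein genes rose in 71 of 73 tested cases (median 1.68; 64 and a median of 1.12 with library totals), led by Rplp0, from 69.4, 68.2 and 71.6 to 430, 383 and 392 CPM, in libraries that also had the larger shares of ribosomal RNA fragments and mitochondrial counts. Endoplasmic reticulum chaperones did not follow: 7 of 24 fell and 1 rose (median -0.32; 20 fell with library totals), with the chaperone Hsp90b1 at -0.77. Splicing factors fell in 12 of 31 cases and rose in 3 (1 without control replicate 2; 22 fell and 0 rose with library totals), with Hnrnph1 at 192, 172 and 209 against 87.9, 86.9 and 99.6 CPM. Among 42 chromatin enzymes 12 fell and 8 rose (27 and 1 with library totals), with Smarca2 lower (-1.24) and the histone deacetylase Hdac7 higher (3.18).

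Metabolic genes of activated macrophages rose in several branches. In arginine, nitric oxide, itaconate and tryptophan metabolism 11 of 15 rose and 0 fell (median 1.48; 8 and 3 with library totals). Nos2, the inducible nitric oxide synthase, went from 1 count in control to 129, 110 and 82.1 CPM, and Arg1, arginase 1 and a member of the monocyte list, from 0.996, 1.93 and 2.16 to 154, 159 and 152 CPM. These 2 enzymes compete for arginine, and both were at 0.403 to 1.90 CPM in remission and chronic means. Of 20 genes for the phagocyte oxidase and antioxidant enzymes 16 rose and 0 fell (median 1.55; 3 fell with library totals). Cybb, the catalytic subunit of the oxidase, stood at 689, 549 and 439 CPM against 13.4, 6.66 and 15.5 CPM, and Gsr, glutathione reductase, at 123, 78.6 and 54.2 against 4.27, 6.13 and 5.39 CPM. Slc7a11, the cystine importer that feeds glutathione synthesis, rose from 2.42, 1.40 and 0.647 to 101, 80.2 and 46.8 CPM. Cybb, Gsr and Slc7a11 were each highest in acute replicate 1 and lowest in replicate 3, as the monocyte markers were. Their order over the acute libraries was not tested.

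Iron and lipid mediators showed opposite changes within a pathway. Among 17 iron and heme genes 8 rose and 2 fell (1 without any 1 acute library or without control replicate 1 or 2), and with library totals 5 rose, 6 fell and the median of 0.44 turned to -0.10. The ferritin chains Fth1 and Ftl1 (2.03) and heme oxygenase Hmox1 (1.66) rose, while Slc40a1, which encodes the iron exporter ferroportin, fell from 82.1, 87.3 and 92.8 to 4.15, 6.13 and 8.60 CPM. Slc40a1 was lower relative to the 4 anchors (-1.57, adjusted p 8.35e-06) but not relative to P2ry12 alone. In the eicosanoid list 4 of 15 rose and 7 fell (median -0.24), or 8 rose without a filter on low counts. Pla2g7, a phospholipase that degrades platelet-activating factor, rose from 0.996, 0.350 and 1.08 to 227, 218 and 206 CPM. The prostaglandin-degrading Hpgd fell from 21.8, 26.6 and 22.0 to 0.519, 1.07 and 0.889 CPM and stayed at 1.01 and 0.0600 CPM in remission and chronic libraries, and cyclooxygenase 1, Ptgs1, (-1.26), and lipoxygenase Alox5 (-1.69) fell. Of 15 hypoxia targets and hexose or lactate transporters 6 rose and 2 fell (3 rose when at least 10 CPM was required, and 4 fell with library totals): the glucose transporters Slc2a6 and Slc2a1 rose and the fructose transporter Slc2a5 fell.

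Several families of surface receptors were split between rises and falls. G protein-coupled receptors for nucleotides, lipids and orphan ligands split evenly, with 16 of 36 higher and 16 lower (11 and 18 with library totals). P2ry12, P2ry13, Gpr34 and the oxysterol receptor Gpr183 fell, while P2ry14, Gpr132, Gpr141 and Adgre5 rose. Cytokine receptors split as well, with 9 of 27 higher and 8 lower (6 and 14 with library totals): Csf2rb, the shared beta chain for GM-CSF and IL-3, rose from 90.9, 72.2 and 91.9 to 412, 410 and 387 CPM, while Tgfbr1 fell from 1079, 1096 and 1162 to 292, 270 and 324 CPM, and Il6st fell too (-2.18). Relative to the 4 anchors Tgfbr1 did not pass (0.39, adjusted p 0.075). Of 24 siglecs and sialic acid enzymes 6 rose and 11 fell (median -0.48). Siglec1 stood at 107, 141 and 94.6 CPM against 3.84, 1.58 and 3.24 CPM, and the sialyltransferase St3gal6 at 9.08, 8.79 and 10.1 against 80.4, 98.1 and 85.9 CPM. Among co-stimulatory and checkpoint ligands 8 of 18 rose and 4 fell (5 and 8 with library totals, 5 and 2 when at least 10 CPM was required), Cd274, which encodes PD-L1, rising by 4.33 and Vsir, which encodes VISTA, falling from 906, 991 and 994 to 224, 228 and 280 CPM.

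Myeloid C-type lectins rose in 9 of 12 tested cases and fell in 0 (median 4.44; 2 fell with library totals, and 5 rose when at least 10 CPM was required). Clec7a, the beta-glucan receptor dectin-1, stood at 194, 146 and 123 against 5.26, 2.10 and 6.26 CPM, and Clec4e, a receptor for mycobacterial glycolipid and also on the monocyte list, went from 0 counts to 64.9, 60.5 and 32.6 CPM. Chemokine receptors rose in 9 of 14 cases and fell in 2, Cx3cr1 among them. Cxcr4 stood at 43.6, 28.0 and 34.4 CPM against 1 control count, a pooled ratio of 615 (95% counting interval 110 to 24365). Of 13 chemokine ligands 8 rose and 1 fell (median 2.99), among them Cxcl9, a T cell attractant induced by interferon gamma, from 0 counts to 17.9, 37.6 and 29.3 CPM, highest in replicate 2. Ion channels were split at 9 of 24 higher and 8 lower, with 5 higher without acute replicate 1 or control replicate 1, and 4 higher and 12 lower with library totals; the potassium channels Kcnj2 (-3.32) and Kcnma1 (-3.54) fell and Kcnj10 (2.63) rose.

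Adhesion, matrix and motility genes changed in both directions. Of 21 integrin and adhesion genes 12 rose and 8 fell (median 1.16). Itgal, the LFA-1 alpha chain of circulating leukocytes, rose from 0.427, 0.350 and 0.647 to 204, 251 and 234 CPM, and Itga9 (-4.88) and Itgb3 (-2.91) fell. Matrix genes and proteases rose in 15 of 25 cases and fell in 7 (median 3.06), with Mmp14, a membrane-bound protease, at 175, 148 and 158 against 19.2, 26.6 and 25.9 CPM. In the list of semaphorins and their receptors 9 of 17 rose and 5 fell, or 5 rose when at least 10 CPM was required. Sema4a stood at 117, 122 and 85.1 against 6.69, 5.61 and 4.53 CPM, and the receptor Plxna4 at 18.2, 17.1 and 18.1 against 189, 190 and 194 CPM, lower than the 4 anchors (-1.13, adjusted p 0.00013) and level with P2ry12 alone (-0.01, adjusted p 0.96). Actin and motility genes rose in 21 of 29 cases and fell in 4 (median 0.90; 12 and 6 with library totals), with the severing protein gelsolin, Gsn, at 94.4, 83.4 and 88.0 against 2.56, 3.86 and 2.37 CPM.

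Among further signalling classes, G proteins and RGS regulators rose in 8 of 23 cases and fell in 7 (2 and 9 with library totals). Circadian genes fell in 6 of 14 cases (10 with library totals) and 1 rose, Cry1, from 2.42, 3.15 and 2.16 to 17.1, 16 and 18.4 CPM. Of 26 kinases and phosphatases of ITAM receptor signalling 7 rose and 8 fell (4 and 15 with library totals), with the Src-family kinase Fgr higher (3.08) and the phosphatase gene Inpp5d, which encodes SHIP1, lower (-0.77). Dual specificity phosphatases and sprouty regulators, which restrain MAP kinases, rose in 5 of 13 cases and fell in 4, with 2 to 3 higher when acute replicate 1 or 3 or control replicate 1 or 2 was left out and 2 higher with library totals. Dusp6 fell from 207, 251 and 293 to 125, 105 and 117 CPM. Of 20 JAK, STAT and SOCS genes 8 rose and 3 fell (8 fell with library totals), with the kinase Jak2 at 207, 156 and 113 against 36.0, 38.9 and 30.9 CPM and the inhibitor Cish at 41.2, 32.0 and 21.9 against 1.42, 0 and 0.647 CPM.

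Engulfment, lysosomal and clotting genes were split as well. Scavenger and engulfment receptors rose in 8 of 16 cases and fell in 3 (6 fell with library totals, and 5 rose when at least 10 CPM was required). The scavenger receptors Msr1, at 98.3, 82.3 and 58.7 against 2.56, 0 and 2.37 CPM, and Cd36, at 32.2, 67.9 and 70.3 against 0.569, 1.23 and 0.863 CPM, rose, while Mertk, which like Axl binds Gas6, fell from 316, 316 and 337 to 149, 155 and 185 CPM. Cathepsins and cystatins rose in 7 of 16 cases and fell in 5 (4 rose without control replicate 1, and 3 rose and 9 fell with library totals), with cystatin B, Cstb, higher (3.77) and Ctsf lower (-2.29). Coagulation and plasminogen genes rose in 8 of 15 cases and fell in 4, or 4 rose when at least 10 CPM was required, with the annexin Anxa2 higher (5.84) and the protease inhibitor Serpine2 lower (-3.04). Paired and immunoglobulin-like receptors rose in 9 of 15 cases and fell in 4, or 16 rose without a filter on low counts. Trem1 rose from 0, 0 and 0.432 to 39.4, 17.6 and 15.4 CPM. Trem2 fell from 326, 379 and 345 to 64.3, 90.3 and 118 CPM but did not pass relative to the anchors (0.29, adjusted p 0.16).

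Supply, survival and autophagy genes rose more often than they fell on the usual scale, but several of these lists turned with library totals. Heat shock proteins were split. Amino acid supply and stress response genes rose in 11 of 17 cases and fell in 0 (5 and 1 with library totals), tRNA synthetases in 7 of 20 with 1 lower (0 lower without acute replicate 3 or control replicate 1; 3 and 7 with library totals, where the median of 0.27 turned to -0.29) and citric acid cycle and fatty acid oxidation genes in 9 of 23 with 1 lower (3 and 8 with library totals, where the median of 0.38 turned to -0.17). Cell death and survival genes rose in 10 of 22 cases with 1 lower (5 and 3 with library totals). The inhibitor of apoptosis Birc3 rose from 25.5, 21.4 and 25.5 to 69.5, 62.6 and 56.0 CPM and the necroptosis effector Mlkl from 0.142, 0.350 and 0.216 to 8.04, 7.19 and 4.45 CPM, while Casp8, an initiator caspase, fell from 77.1, 77.5 and 67.8 to 37.4, 39.4 and 46.2 CPM. Autophagy genes rose in 9 of 24 cases and 1 fell (3 and 8 with library totals), and heat shock proteins in 3 of 15 with 4 lower (2 lower without any 1 acute library, 7 with library totals). Of 11 glucocorticoid targets and metallothioneins 4 rose and 3 fell, and of 19 TRIM ubiquitin ligases 5 rose and 7 fell (3 rose without acute replicate 1; 1 rose and 11 fell with library totals). Growth factor genes rose in 5 of 9 cases and 1 fell, Pdgfb, from 75.2, 105 and 94.1 to 10.4, 11.2 and 25.5 CPM. In this list 3 rose without control replicate 2, 2 fell without acute replicate 3 or control replicate 1, and 3 rose and 4 fell with library totals. Csf1, a ligand of Csf1r, rose from 11.5, 9.11 and 7.77 to 37.9, 30.4 and 42.1 CPM and stood at means of 84.7 and 81.5 CPM in remission and the chronic phase.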

How the data were processed

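RNA of sorted spinal cord microglia was reverse transcribed with random hexamers, made into Nextera XT libraries that keep no strand, and sequenced as single reads of 75 bases, per the labels' protocols. Reads were aligned with HISAT2 to GRCm38, and the tools named beside it are SAMtools 1.3.1, Picard 2.6.4 and HTSeq 0.6.1, per the submitters' processing notes; the annotation release and counting settings are not given in the sources used here. The values the authors deposited are raw counts of reads per gene for 48526 Ensembl IDs, of which 48144 were found in GENCODE M21.

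A model of all 12 libraries in 4 groups was fitted in edgeR 4.0.16 (R 4.3.3) after its default filter, using TMM (trimmed mean of M) factors and its robust quasi-likelihood test. P-values were adjusted by Benjamini-Hochberg over the 12545 genes tested, and the threshold for a call was 0.05. CPM are counts scaled to TMM-adjusted library sizes. Differences are log2, acute minus control unless stated, with the standard error (SE). The second fit took the summed counts of the 4 anchor genes as library sizes. Replicates were numbered in record order, which was not used to pair mice. The fit was also run on simulated counts with few changed genes and as many rises as falls. That run does not cover changes in library composition as wide as those seen here.

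Genes were named by rule: groups without overlap, a higher group of 30 CPM or more and the largest changes, up to 12 a direction; up to 12 rises from at least 20 CPM in control; up to 10 rises kept at 50% or more in both later groups; up to 10 falls relative to the anchors from at least 100 CPM; and up to 4 members a list and direction by smallest p. Some genes that these rules name are not reported here. Predicted genes and, outside the lists, markers of other cells were left out. The rules, the 48 function lists, the 12 marker lists and the tests were chosen with earlier results of these data known. Where a group had 0 counts, 3 counts over the group served as floor, and ratios of groups with 1 to 3 counts carry exact 95% intervals. These cover counting error only, since reads had no molecular identifiers. Alternatives were DESeq2 1.42.0 and its size factors, limma-voom (limma 3.58.1), library totals, other filters, the 2 groups alone, the number in the sample titles as a covariate, and leaving out each library.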

Additional observations from a re-analysis of the deposited data

How the results depend on the processing

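With library totals in place of TMM factors, 1603 genes were higher and 5427 lower, 1231 and 3329 of them by more than 2-fold. Requiring at least 10 CPM in 3 libraries left 1144 higher and 797 lower by more than 2-fold, with fewer genes tested. With P2ry12 as the only anchor 33 genes were lower. Ptprc (-0.56), Rela (-0.50) and Nfkb1 (-0.39) did not pass with TMM factors and were lower with library totals. On that scale the control means of marker sums were 19863 CPM for resting microglia, 481 for neutrophils, 276 for dendritic cells, 1.2 for border macrophages, 125 for oligodendrocytes, 87.3 for astrocytes and 18.6 for endothelial cells. The acute means were 112 for dendritic cells, 440 for oligodendrocytes, 184 for astrocytes, 8.76 for neurons and 21.2 for endothelial cells. Without Csf3r, a choice made after seeing the data, the neutrophil sum in control was 0.853 CPM. Itgam, which encodes CD11b, was lower by -0.62 (adjusted p 0.029), a call lost without acute replicate 1, control replicate 1 or control replicate 3 (adjusted p 0.063 to 0.115). With 3 mice a group and 1266782 to 1459329 acute counts outside the most abundant and mitochondrial features, small changes in low genes were not detectable. No paired analysis was possible because the replicate numbers were given in record order and the labels do not say whether the numbers in the sample titles tie mice across groups.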
